A study of Mus musculus with 18 samples.

Results

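Mouse primordial germ cell-like cells (PGCLC) carrying an Esrrb knockout (KO) were followed over the later part of their culture, with 3 KO libraries at day 5 set against 3 KO libraries at day 3. These 6 libraries, out of 18 in all, were chosen by their labels alone, and the KO lines A5, B1 and A2 each gave a library at both days. The same step in 6 libraries of wild-type (WT) PGCLC, 3 at day 5 and 3 at day 3, was used to show where the KO step differed, and the 6 EpiLC libraries entered only an alternative fit. All cells were SGET embryonic stem cells of a B6CBA/129 background, cultured on gelatin in 2i/L medium, passed to epiblast-like cells (EpiLC) on fibronectin with activin A and bFGF, and then grown as PGCLC with BMP4, LIF, SCF, BMP8a and EGF. PGCLC of both genotypes and both days were sorted as SG+ETlow, that is, positive for the Stella (Dppa3) reporter and low for the Esg1 (Dppa5a) reporter, so no change was read from those genes. The late libraries carry 6 as their day in the descriptions but 5 in the time label and titles, and are called day 5. Line A2 is written KO2 in its titles. The labels do not say which part of Esrrb was removed, whether each line is a single clone, or whether the WT replicates were separate cultures, so p-values measure only the spread between these libraries.

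Primordial germ cells are the embryonic founders of eggs and sperm. After specification by BMP signals they keep a pluripotency network active, lose most DNA methylation, and then switch on genes of later germ cell life, such as those for RNA binding, transposon control and meiosis, which are held silent by promoter methylation and repressor complexes in other cells. PGCLC in culture follow the early part of this course. Esrrb is an orphan nuclear receptor of the naive pluripotency network that is expressed again in germ cells.

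Esrrb itself (ENSMUSG00000021255, chr12:86361117-86521628, GRCm38) was still counted in the KO lines. It had 145, 201 and 129.6 CPM (counts scaled to a common library size) in KO day-5 PGCLC of lines A5, B1 and A2, against 163, 166 and 92.3 CPM in KO day-3 PGCLC of the same lines. WT PGCLC had 591, 604 and 568 CPM at day 5, against 633, 597 and 619.8 CPM at day 3. Every KO library lay below every WT library, and the KO day-5 and day-3 values overlapped (log2 fold change 0.19 ± 0.08, adjusted p = 0.141). Library values below are CPM scaled by the fit, in the order A5, B1, A2 for KO and 1, 2, 3 for WT, and ± marks a standard error (SE) unless stated.

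Library totals were 4067737, 4579130 and 4893302 counts at KO day 5, against 4639303, 3032965 and 3970427 at KO day 3, so counts in line B1 at day 3 were the least precise. The germ cell markers Prdm1, Prdm14, Tfap2c, Nanos3, Dnd1 and Kit were counted in every KO library and summed to 399 to 608 CPM at KO day 5, against 453 to 664 CPM at KO day 3. The marker Dppa3 was left out of this sum as a gene of the sort. The first principal component of log2 CPM (47.6% of the variance) separated KO from WT libraries, and the second (15.3%) separated the days in both genotypes. Line A2 stood apart from A5 and B1 on the third (13.3%) at both days. Parts of the difference between lines ran over whole chromosomes. The median log2 level of line A2 less the other lines was -0.52 at day 5 and -0.49 at day 3 on chromosome 11, and 0.31 at both days on chromosome 1. That of line A5 was 0.48 at day 5 and 0.51 at day 3 on chromosome 16, and on the other autosomes and X the line medians were -0.07 to 0.09. The median KO change from day 3 to day 5 on chromosomes 1, 11 and 16 was -0.0043, 0.013 and -0.0094. Their part in single results was not tested. KO libraries of a group differed from each other far more than WT libraries did: the chi-square per degree of freedom between a pair of libraries was 3.95 to 13.0 in KO and 1.16 to 1.80 in WT. The day-5 to day-3 ratios of the 3 lines were correlated over 12380 genes (r = 0.484 for A5 with B1, 0.375 for A5 with A2 and 0.371 for B1 with A2), which describes genes of these libraries and not independent replicates.

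**Figure D1:**
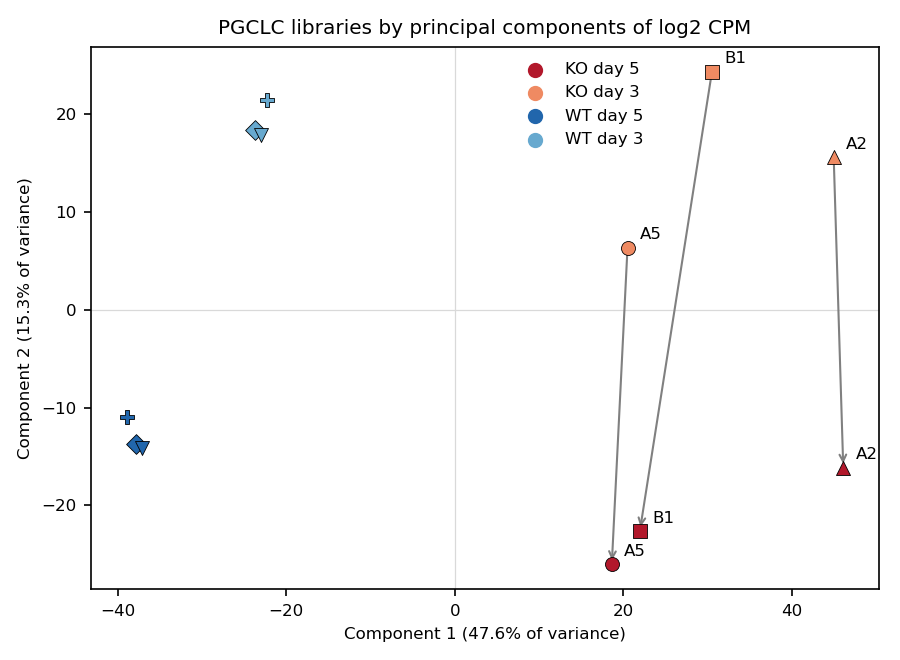
The 12 PGCLC libraries on the first and second principal components of log2 CPM, with arrows that join the day-3 to the day-5 library of each KO line. All 3 KO lines end lower on the second component at day 5 (-16.2 to -26.0) than at day 3 (6.33 to 24.3), as the WT libraries do.

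Between the days, 2145 of 12380 tested genes changed in KO PGCLC (17.3%), 1126 higher at day 5 (9.1%) and 1019 lower (8.23%), at an adjusted p under 0.05 with the line as a block. The larger changes were mostly increases: 305 genes rose and 53 fell at least 2-fold. Among the called genes 2031 moved the same way in all 3 lines, against 5331 of all 12380 tested genes (43.1%). No overlap between the 3 libraries of each day was found for 990 called genes, against 1724 of all tested genes (13.9%). With genes of chromosomes 1, 8, 11, 16 and Y left out, 1672 of 9573 were called, 882 higher and 790 lower. The main test takes its spread from WT libraries as well, and the WT libraries varied less. With the 6 KO libraries alone 777 of 11828 genes were called (6.57%), 460 higher (3.89%) and 317 lower (2.68%), and without the line as a block 176 were called in the fit of 12 libraries. Counts from both the 12 and the 6 libraries are therefore given for gene lists. KO counts of a list are to be read against the 9.1% of tested genes called higher and the 8.23% called lower. Counts with KO libraries alone are to be read against 3.89% and 2.68%. In WT PGCLC the same step was called for 10.1% of tested genes higher and 11.5% lower, against which the WT counts of a list are to be read. All values are from sorted populations in bulk, in which fewer cells of a type and less RNA per cell cannot be told apart.

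Called genes were ranked if they had at least 5 CPM in the higher group, the same sign in all 3 lines and no overlap between the days. Among these, the 12 largest increases were led by genes that were close to 0 at day 3. Prmt8 (ENSMUSG00000030350, chr6:127689011-127769472), a membrane-bound arginine methyltransferase, had 2.66, 6.03 and 6.57 CPM in KO day-5 libraries, against 0.219, 0 and 1.03 CPM in KO day-3 libraries (log2 fold change 3.41 ± 0.52, adjusted p = 4.7e-05). The alpha-tubulin gene Tuba3b had 21.6, 22.2 and 6.57 CPM at KO day 5, against 2.85, 2.99 and 0.771 CPM at KO day 3 (2.92 ± 0.26, adjusted p = 1.94e-08). Every day-5 library of these genes was above every day-3 library, which the ranking required. Line A2 was low for Tuba3b at both days, and reads of Tuba3b may be shared with near-identical tubulin genes. Bcl11a (chr11:24078056-24174123), a zinc finger repressor known from blood and neurons, had 19.6, 8.18 and 16.2 CPM at KO day 5, against 4.60, 2.33 and 3.60 CPM at KO day 3 (2.06 ± 0.24, adjusted p = 1.12e-06). WT PGCLC had Bcl11a at 0.404, 0.405 and 0 CPM at day 5, against 0.244, 1.15 and 0.461 CPM at day 3, so every KO library at either day lay above every WT library. The collagen receptor Ddr2 had 6.30, 21.1 and 6.98 CPM at KO day 5, against 2.19, 2.33 and 2.06 CPM at KO day 3 (2.24 ± 0.30, adjusted p = 8.56e-06). The others were Myo1f, Cdk5r2, Dub1, Gpr124, Tbx4, Tmem132c, Treml2 and Ripply1, with log2 fold changes of 1.93 to 2.80. That of Tmem132c was 3.47 without line A2.

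In the same ranking, the 12 largest decreases included Gata2 and Peg10, both active in placenta. Gata2, a GATA factor of trophoblast and blood, had 17.7, 17.0 and 14.0 CPM in KO day-5 libraries, against 32.7, 53.5 and 73.2 CPM in KO day-3 libraries (log2 fold change -1.70 ± 0.21, adjusted p = 0.000247), and WT levels were 19.4, 24.1 and 24.8 CPM at day 5, against 24.9, 28.3 and 30.9 CPM at day 3. The imprinted retrotransposon-derived gene Peg10 had 503, 439 and 354 CPM at KO day 5, against 823, 1305 and 2156 CPM at KO day 3 (-1.63 ± 0.33, adjusted p = 0.0181). For both genes line A2 at day 3 was the highest library. Peg10 was not called with KO libraries alone (adjusted p = 0.288) or without line B1 (adjusted p = 0.075). Fndc3c1, an X-linked gene, had 6.30, 3.87 and 4.72 CPM at KO day 5, against 19.3, 18.6 and 14.6 CPM at KO day 3 (-1.81 ± 0.20, adjusted p = 6.21e-07). The actin-binding gene Tagln had 8.48, 4.09 and 5.96 CPM at KO day 5, against 26.3, 19.6 and 11.6 CPM at KO day 3 (-1.61 ± 0.22, adjusted p = 1.13e-05). Both also fell in WT PGCLC, by 3.43 for Fndc3c1 and by 2.37 for Tagln on the log2 scale. The others were Mal2, Tmem54, Vgll3, Prom2, Slc16a9, Dab2, Mbnl3 and Fign, with log2 fold changes of -1.98 to -1.30. Vgll3 was at -2.49 without line A5 and at -1.15 without line A2, and Mbnl3 at -0.89 without line A2.

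**Figure D2:**
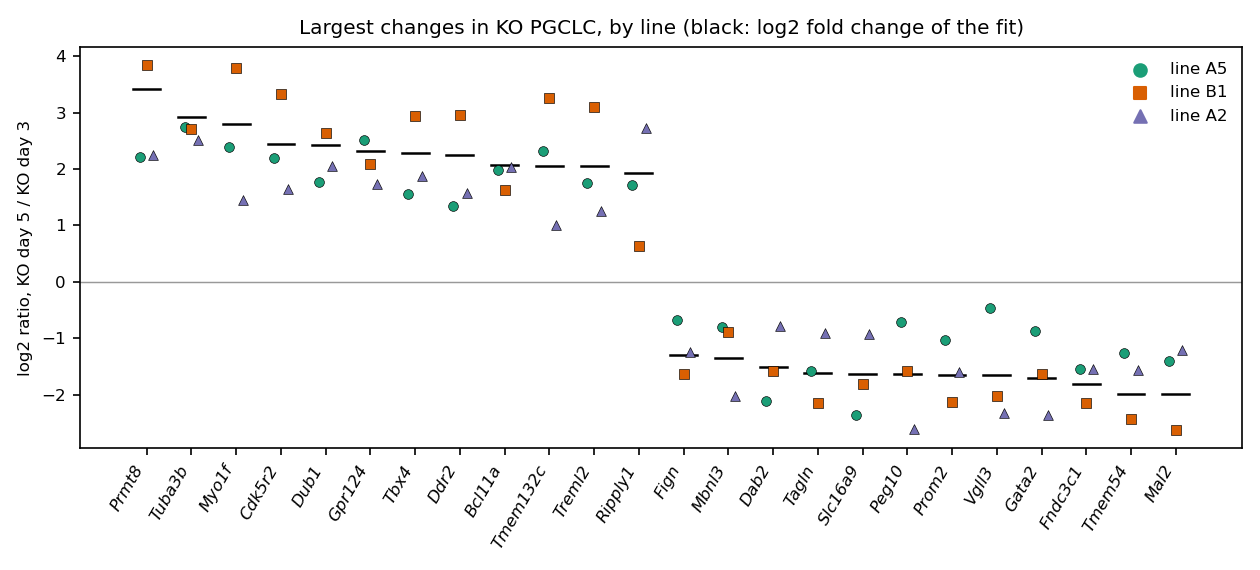
The 24 genes with the largest changes in KO PGCLC among the called genes open to naming. These had at least 5 CPM in the higher group, the same sign in all 3 lines and no overlap between the days. Each gene has the log2 ratio of day 5 to day 3 in lines A5, B1 and A2 (log2 CPM with a prior count of 2). Black marks the log2 fold change of the fit, which uses a smaller prior and can lie outside the line values for genes near 0. All 3 lines lie on the same side of 0 for each gene because the choice of genes required it. The spread between lines reaches over 2 log2 units, as for Myo1f.

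Genes of later germ cell life rose in part. Of 48 genes of a late germ cell list 39 passed the filter on low counts, and of these 9 were called higher and 2 lower in KO PGCLC at day 5 (23.1% and 5.13%, against 9.1% and 8.23% of all tested genes), with a median log2 fold change of 0.26, against -0.0018 for all tested genes. With KO libraries alone it was 7 higher and 1 lower of 37, and with each line left out 9 to 11 were higher and 1 to 3 lower. In WT PGCLC 11 were higher and 7 lower (all tested genes 10.1% and 11.5%). The risen genes included the RNA-binding gene Dazl, genes of the meiotic chromosome axis and cohesin (Hormad1, Hormad2, Smc1b, Stag3, Sycp3), the testis bromodomain gene Brdt, Gpat2, which is needed for piRNA production, and the germ cell ribosomal gene Rpl10l.

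Promoters of this list are shown because many hold an E-box, the letters CACGTG, which is read by MAX and its partners in a repressor complex of germline genes. Among 39 list members with a RefSeq promoter (GRCm38.p6, the 250 bases before the start), 17 hold CACGTG (43.6%), against 10.4% of 8850 tested genes and 6.86% of 27025 RefSeq promoters. The E2F letters GGCGGGAA are in 4 of 39 (10.3%), against 4.31% of tested genes and 2.13% of all. Both strands were searched, CACGTG reads the same on both, and the motifs do not overlap each other. Of the 9 risen genes, 4 hold CACGTG (Brdt, Hormad1, Stag3 and Sycp3), and Dazl, Smc1b, Gpat2, Hormad2 and Rpl10l do not. A match is a description of the sequence and not a measured binding site. The sequences below are on the plus strand, which is the strand of each gene, and capitals mark CACGTG and, in Hormad1, also GGCGGGAA.
Hormad1 (chr3:95559427-95559676): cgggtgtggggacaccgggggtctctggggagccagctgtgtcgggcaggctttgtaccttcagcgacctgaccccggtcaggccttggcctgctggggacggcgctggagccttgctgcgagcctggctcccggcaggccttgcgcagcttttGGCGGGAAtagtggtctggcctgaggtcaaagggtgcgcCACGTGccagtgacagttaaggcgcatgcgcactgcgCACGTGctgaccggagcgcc
Sycp3 (chr10:88459337-88459586): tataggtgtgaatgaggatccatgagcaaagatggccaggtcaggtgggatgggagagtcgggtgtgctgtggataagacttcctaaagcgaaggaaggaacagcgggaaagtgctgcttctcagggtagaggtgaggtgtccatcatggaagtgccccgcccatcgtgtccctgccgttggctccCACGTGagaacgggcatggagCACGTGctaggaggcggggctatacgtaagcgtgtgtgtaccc
Brdt (chr5:107330944-107331193): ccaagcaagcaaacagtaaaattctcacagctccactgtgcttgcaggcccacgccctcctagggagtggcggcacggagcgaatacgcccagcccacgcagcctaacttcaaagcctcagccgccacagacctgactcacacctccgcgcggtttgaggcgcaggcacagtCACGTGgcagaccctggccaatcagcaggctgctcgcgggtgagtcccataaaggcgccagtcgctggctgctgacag

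Dazl (ENSMUSG00000010592, chr17:50279395-50293636), which binds and activates germ cell messenger RNAs, had 59.1, 64.4 and 32.7 CPM in KO day-5 libraries, against 26.5, 17.9 and 12.8 CPM in KO day-3 libraries (log2 fold change 1.42 ± 0.14, adjusted p = 1.65e-07). WT PGCLC had 95.1, 102 and 77.5 CPM at day 5, against 35.8, 32.5 and 32.0 CPM at day 3. Every day-5 library was above every day-3 library of its genotype, and the difference between the KO and WT steps was -0.04 ± 0.18 (adjusted p = 0.94). Hormad1 (chr3:95559677-95587671), a HORMA protein of unsynapsed meiotic chromosomes, had 15.7, 15.7 and 14.8 CPM at KO day 5, against 5.92, 5.32 and 4.88 CPM at KO day 3 (1.51 ± 0.21, adjusted p = 1.22e-05). The 3 lines were close to each other at both days. Brdt had 5.57, 4.74 and 3.08 CPM at KO day 5, against 1.97, 2.33 and 0.514 CPM at KO day 3 (1.50 ± 0.38, adjusted p = 0.00619).

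The meiotic cohesin gene Smc1b had 105, 57.9 and 38.0 CPM in KO day-5 libraries, against 53.3, 22.9 and 14.9 CPM in KO day-3 libraries (log2 fold change 1.16 ± 0.10, adjusted p = 1.85e-08). Gpat2 had 59.8, 45.4 and 26.7 CPM at KO day 5, against 27.8, 20.9 and 5.40 CPM at KO day 3 (1.32 ± 0.15, adjusted p = 3.56e-06). For both genes each line rose, but the lines kept an order of A5, B1, A2 at each day, and the days overlapped. Rpl10l had 28.8, 25.6 and 22.6 CPM at KO day 5, against 17.5, 8.64 and 11.6 CPM at KO day 3 (1.01 ± 0.16, adjusted p = 5.95e-05). Hormad2 had 50.9, 56.4 and 36.2 CPM at KO day 5, against 37.3, 35.2 and 19.5 CPM at KO day 3 (0.65 ± 0.11, adjusted p = 0.000146). WT levels of Hormad2 were 13.5, 11.7 and 11.9 CPM at day 5, against 14.1, 12.4 and 15.7 CPM at day 3, below every KO library. Sycp3 and Stag3 passed with all libraries (0.69 and 0.31) but not without line A2 (adjusted p = 0.0907 and 0.0975).

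Other germ cell genes fell or were not called. Tdrd5, a Tudor protein of transposon silencing, had 11.1, 15.7 and 18.7 CPM in KO day-5 libraries, against 22.1, 41.5 and 25.4 CPM in KO day-3 libraries (log2 fold change -0.94 ± 0.15, adjusted p = 7.05e-05), and also fell in WT PGCLC (-1.14). Ddx4, the germ cell helicase known as Vasa, had 33.4, 26.3 and 18.9 CPM at KO day 5, against 35.1, 28.6 and 21.3 CPM at KO day 3 (-0.11 ± 0.13, adjusted p = 0.589). Stra8, which opens the meiotic programme in response to retinoic acid, had 83.3, 128 and 23.01 CPM at KO day 5, against 18.4, 8.97 and 25.7 CPM at KO day 3 (1.93 ± 0.57, adjusted p = 0.0679). Lines A5 and B1 were higher at day 5 for Stra8 and line A2 was not. Stra8 did not pass in the main test or with KO libraries alone (adjusted p = 0.447), but passed with DESeq2 (0.0243). Pnldc1, a trimmer of piRNAs, passed with all libraries (-0.39) but not without line A5 or B1 (adjusted p = 0.21 and 0.101). Mael, a piRNA pathway gene, was at 0.52 ± 0.19 (adjusted p = 0.0632) and higher at day 5 in each line. It passed with limma-trend (adjusted p = 0.0341) and not with KO libraries alone (0.157).

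**Figure D3:**
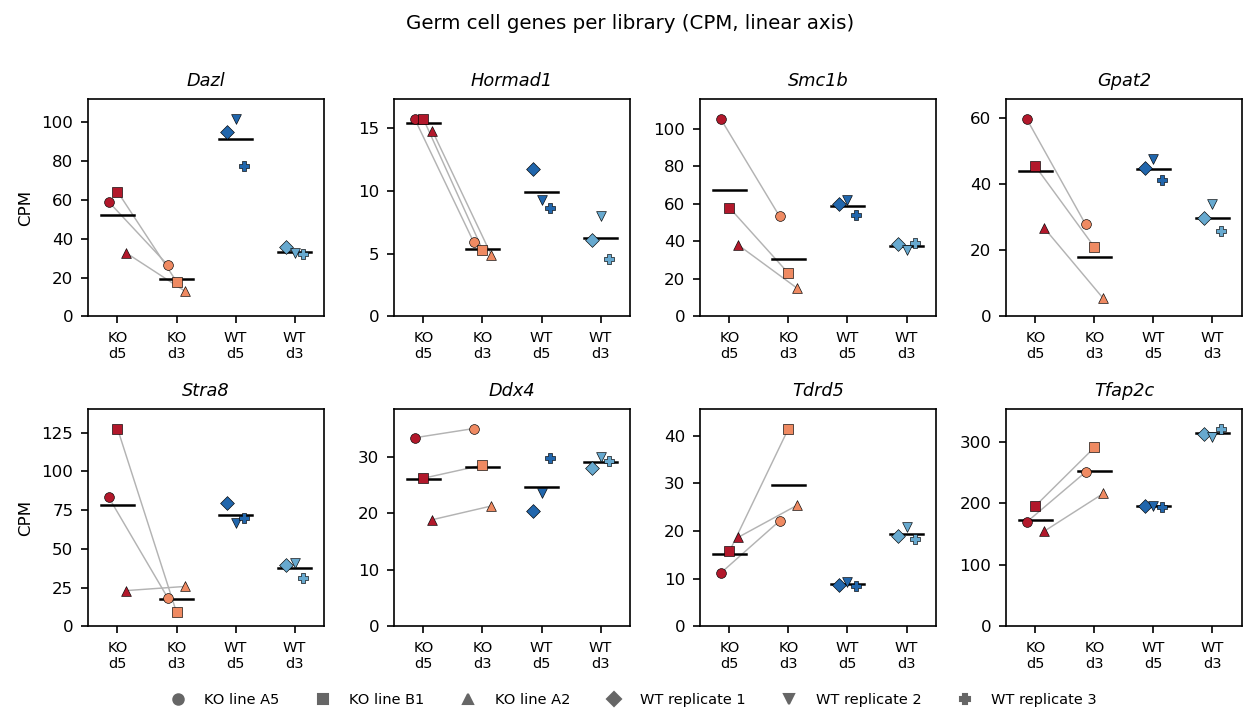
CPM of 8 germ cell genes in each library of KO day 5, KO day 3, WT day 5 and WT day 3, on linear axes from 0, with black bars for group means and grey lines that join the libraries of a KO line. Dazl, Hormad1, Smc1b and Gpat2 are higher at day 5 in every KO line, Tdrd5 and Tfap2c are lower in every KO line, and Stra8 differs between line A2 and the others.

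Genes that specify germ cells moved in both directions. Of 21 tested genes of this list 5 were called higher and 3 lower in KO PGCLC at day 5, with a median log2 fold change of 0.07, and 3 were higher and 1 lower with KO libraries alone. Tfap2c (chr2:172549593-172558622), an AP2 factor of the core specification network, had 169, 196 and 155 CPM in KO day-5 libraries, against 251, 291 and 216 CPM in KO day-3 libraries (-0.54 ± 0.06, adjusted p = 2.27e-07). WT PGCLC had 195, 196 and 194 CPM at day 5, against 313, 308 and 322 CPM at day 3. No day-5 library reached a day-3 library in either genotype. The partners of Tfap2c in that network did not pass. The repressor Prdm1 (Blimp1) had 57.9, 71.9 and 68.8 CPM at KO day 5, against 75.6, 69.4 and 49.1 CPM at KO day 3 (adjusted p = 0.887), and Prdm14 had 52.1, 98.8 and 71.1 CPM at KO day 5, against 63.6, 69.4 and 65.8 CPM at KO day 3 (adjusted p = 0.446). Nanos3, needed for germ cell survival, was at 0.23 ± 0.22 (adjusted p = 0.522), and the SCF receptor gene Kit at -0.08 ± 0.07 (adjusted p = 0.513). The gate genes were at -0.33 ± 0.11 for Dppa3 and 0.05 ± 0.06 for Dppa5a.

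3 surface and cofactor genes of the specification list rose in KO PGCLC and kept the call whichever line was left out. The adhesion gene Pecam1 had 394, 407 and 238 CPM in KO day-5 libraries, against 314, 321 and 154 CPM in KO day-3 libraries (log2 fold change 0.42 ± 0.06, adjusted p = 4.62e-05). The Akt cofactor Tcl1 had 12.6, 11.4 and 21.8 CPM at KO day 5, against 7.67, 6.64 and 8.99 CPM at KO day 3 (0.97 ± 0.19, adjusted p = 0.000913). Ifitm1 (Fragilis2), an interferon-inducible surface protein of early germ cells with close copies in the genome, had 324, 328 and 379 CPM at KO day 5, against 293, 229.6 and 287 CPM at KO day 3 (0.35 ± 0.07, adjusted p = 0.000466). WT PGCLC had Ifitm1 at 146, 134 and 147 CPM at day 5, against 224, 240.4 and 213 CPM at day 3, the opposite direction, and the difference between the steps was 1.02 ± 0.10 (adjusted p = 2.06e-07). The other 4 calls depended on line B1. Without it Ifitm3 was at 0.30 (adjusted p = 0.197), Itgb3 at 0.22 (0.297), the RNA-binding gene Dnd1 at -0.41 (0.0935) and the let-7 blocker Lin28a at -0.17 (0.0735). Ifitm3 was also not called without line A2 (0.098) or without WT day-5 replicate 3 (0.0554).

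Some naive pluripotency genes rose. Of 22 tested, 6 were called higher and 0 lower in KO PGCLC at day 5, with a median log2 fold change of 0.16, and 4 were higher with KO libraries alone. Without line A5 11 were higher, and without line B1 6 were higher and 2 lower. The median ratio of the list was -0.14 in line A5, 0.57 in line B1 and 0.24 in line A2, so the lines did not move together. Nr0b1 (Dax1), an orphan nuclear receptor that binds Esrrb protein, had 25.2, 18.9 and 12.1 CPM in KO day-5 libraries, against 9.20, 4.32 and 5.65 CPM in KO day-3 libraries (1.52 ± 0.20, adjusted p = 6.95e-06). WT PGCLC had 37.5, 32.2 and 31.3 CPM at day 5, against 32.4, 25.2 and 23.3 CPM at day 3. Every KO day-5 library was above every KO day-3 library, and KO levels at day 3 were below all WT levels. Fgf4, the growth factor made by pluripotent cells, had 114, 125 and 191 CPM at KO day 5, against 70.8, 75.4 and 108 CPM at KO day 3 (0.75 ± 0.07, adjusted p = 1.85e-08). In WT PGCLC Fgf4 had 319, 321 and 339 CPM at day 5, against 314, 319 and 317 CPM at day 3, and the difference between the steps was 0.71 ± 0.09 (adjusted p = 1.42e-05).

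The junction gene Jam2 rose as well, with 54.5, 73.4 and 33.9 CPM in KO day-5 libraries, against 38.4, 37.5 and 22.6 CPM in KO day-3 libraries (log2 fold change 0.69 ± 0.10, adjusted p = 3.15e-05). The core naive factors did not pass. Nanog had 417, 568 and 522 CPM at KO day 5, against 519.8, 380.1 and 524 CPM at KO day 3 (adjusted p = 0.763), Klf4 was at -0.10 ± 0.22 (adjusted p = 0.811), Tfcp2l1 at 0.06 ± 0.09 (adjusted p = 0.683) and Zfp42 (Rex1) at 0.20 ± 0.12 (adjusted p = 0.299). Klf2 and Nr5a2 passed at 0.42 and 0.28, and both lost the call without line B1 (adjusted p = 0.183 and 0.243) and without line A2 (0.0507 and 0.14). Of 16 genes shared by all pluripotent states 3 were higher and 4 lower, and with KO libraries alone 0 and 3. Without line A5 the counts were 6 and 4, without line B1 0 and 3 and without line A2 2 and 4. Pou5f1 (Oct4) was at 0.19 (adjusted p = 0.0357) and at 0.07 without line B1 (0.549), and Sox2 was at 0.16 (adjusted p = 0.131). The telomere and replication-timing gene Rif1 had 559.6, 579 and 689 CPM at KO day 5, against 717, 737 and 786 CPM at KO day 3 (-0.30 ± 0.05, adjusted p = 0.000227), and the epithelial adhesion gene Epcam had 284, 224 and 236 CPM at KO day 5, against 368, 347 and 263 CPM at KO day 3 (-0.39 ± 0.07, adjusted p = 0.00041).

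Of 22 tested genes of the formative epiblast, the state that EpiLC model, 11 rose and 2 fell in KO PGCLC at day 5 (50% and 9.09%, against 9.1% and 8.23% of all tested genes), with a median log2 fold change of 0.33. With KO libraries alone 4 of 21 were higher and 1 lower, with each line left out 8 to 10 were higher and 2 to 3 lower, and in WT PGCLC 4 were higher and 3 lower. Otx2, an epiblast factor known to oppose germ cell entry and named here after its values were seen, had 54.5, 24.3 and 40.9 CPM in KO day-5 libraries, against 31.3, 15.3 and 17.0 CPM in KO day-3 libraries (0.92 ± 0.13, adjusted p = 1.26e-05). WT PGCLC had 34.5, 30.5 and 29.9 CPM at day 5, against 36.3, 43.1 and 46.5 CPM at day 3, lower at day 5 in every WT library, and the difference between the steps was 1.33 ± 0.17 (adjusted p = 2.26e-05). Zic2, a zinc finger factor of formative enhancers, had 108, 111 and 55.5 CPM at KO day 5, against 50.2, 22.6 and 32.1 CPM at KO day 3 (1.33 ± 0.22, adjusted p = 0.00496, and 0.114 with KO libraries alone). Its relative Zic5, also named after its values were seen, had 58.1, 62.0 and 43.8 CPM at KO day 5, against 34.6, 26.6 and 22.9 CPM at KO day 3 (0.95 ± 0.11, adjusted p = 1.32e-06). Each line was higher at day 5 for all 3 genes, and the days overlapped only for Otx2.

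Lefty1 and Nodal of the formative list also rose. Lefty1, a secreted inhibitor of Nodal, had 101, 72.7 and 169 CPM in KO day-5 libraries, against 34.8, 21.3 and 113 CPM in KO day-3 libraries (log2 fold change 1.12 ± 0.20, adjusted p = 0.00583, and 0.0796 with KO libraries alone). WT PGCLC had 9.89, 7.89 and 10.04 CPM at day 5, against 10.5, 13.7 and 10.4 CPM at day 3, below every KO library. Nodal itself, named after its values were seen, had 74.1, 78.1 and 107 CPM at KO day 5, against 53.5, 31.9 and 78.9 CPM at KO day 3 (0.66 ± 0.12, adjusted p = 0.000552). Fgf15 was at 2.00 (adjusted p = 0.00384) and at 3.04 without line A2, and did not pass the filter on low counts with KO libraries alone. The epiblast markers Fgf5, Otx2 and Pou3f1 summed to 31.6 to 77.8 CPM at KO day 5, against 19.9 to 44.9 CPM at KO day 3, and the part of other cells in these results was not tested. Among the nuclear receptors and partners of Esrrb 6 of 10 were higher and 0 lower, 2 were higher with KO libraries alone, and 4 to 5 with each line left out. Esrra, the related receptor of mitochondrial metabolism, had 54.5, 48.0 and 36.4 CPM at KO day 5, against 40.8, 30.9 and 25.2 CPM at KO day 3 (0.52 ± 0.11, adjusted p = 0.00151).

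The writers and erasers of DNA methylation changed little and not in a single direction. Of 13 tested, 2 were called higher and 3 lower in KO PGCLC at day 5, and 1 and 2 with KO libraries alone. The counts were 1 and 3 without line A5, 4 and 2 without line B1 and 4 and 4 without line A2. The formative list and this list share the new-methylation enzymes, which moved in opposite directions. Dnmt3a had 200.1, 158 and 225 CPM in KO day-5 libraries, against 139, 121 and 199.7 CPM in KO day-3 libraries (log2 fold change 0.35 ± 0.07, adjusted p = 0.00113). Dnmt3b had 235, 137 and 242 CPM at KO day 5, against 281, 221 and 314 CPM at KO day 3 (-0.43 ± 0.07, adjusted p = 0.00025). Each of the 3 lines was higher for Dnmt3a and lower for Dnmt3b. Uhrf2 had 76.6, 107 and 98.4 CPM at KO day 5, against 101, 138 and 135 CPM at KO day 3 (-0.41 ± 0.07, adjusted p = 0.000151), and fell in WT PGCLC by 0.44. The maintenance methylase Dnmt1 was at -0.25 (adjusted p = 0.00474) and lost the call without line B1 (adjusted p = 0.091), and the oxidase Tet2 at 0.62 (adjusted p = 0.0269) and lost it without line A5 (0.0814). The cofactor Dnmt3l, with 122, 30.8 and 121 CPM at KO day 5, against 104, 45.8 and 61.4 CPM at KO day 3, differed more between lines than between days (adjusted p = 0.36). Uhrf1, Tet1, Tet3 and Tdg did not pass (adjusted p = 0.897, 0.173, 0.301 and 0.58).

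Of 18 enzymes and readers of H3K9 and H3K27 methylation 2 were higher and 4 lower (11.1% and 22.2%, against 9.1% and 8.23% of all tested genes). With KO libraries alone the counts were 2 and 0. Without line A5 or line B1 the counts were 2 and 2. Both that rose are demethylases. Kdm6b, which acts on H3K27, had 127, 166 and 121 CPM in KO day-5 libraries, against 59.6, 69.4 and 71.7 CPM in KO day-3 libraries (log2 fold change 1.03 ± 0.10, adjusted p = 1.69e-07). Kdm3a, which acts on H3K9, had 265, 263 and 219.8 CPM at KO day 5, against 220.0, 187 and 174 CPM at KO day 3 (0.36 ± 0.06, adjusted p = 0.000136). Every day-5 library of Kdm6b was above every day-3 library. Of 12 members of PRC1.6, the repressor complex of germline promoters that holds MAX and E2F6, 0 rose and 1 fell, also with KO libraries alone: its DP subunit Tfdp1 had 46.8, 61.1 and 78.1 CPM at KO day 5, against 77.1, 87.0 and 109.7 CPM at KO day 3 (-0.57 ± 0.08, adjusted p = 1.96e-05).

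Genes of mitosis fell. Of 25 tested, 0 were called higher and 14 lower in KO PGCLC at day 5 (56%, against 8.23% of all tested genes), and 0 and 8 with KO libraries alone. The count of 14 was 9 without line A5, 9 without line B1 and 19 without line A2. In 19 of the 25 all 3 lines were lower, against 21.1% of all tested genes, and in WT PGCLC 18 of 25 fell, against 11.5% of all tested genes. Ccnb1, the cyclin that drives entry into mitosis, had 117, 132 and 157 CPM in KO day-5 libraries, against 157, 209 and 193 CPM in KO day-3 libraries (log2 fold change -0.46 ± 0.07, adjusted p = 6.35e-05). The spindle midzone gene Prc1 had 178, 229 and 258 CPM at KO day 5, against 265, 316 and 291 CPM at KO day 3 (-0.40 ± 0.07, adjusted p = 0.000136), and the kinetochore motor gene Cenpe had 167, 168 and 178 CPM at KO day 5, against 195, 254 and 231 CPM at KO day 3 (-0.40 ± 0.07, adjusted p = 0.000227). The days did not overlap for any of the 3 genes, although line A2 at KO day 5 and line A5 at KO day 3 were level for Ccnb1 to the digits given. The median ratio of the list was -0.29 in line A5, -0.30 in line B1 and -0.07 in line A2.

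Fewer genes of DNA replication were called. Of 25 tested 0 were higher and 6 lower, 1 was lower with KO libraries alone, and 2 were lower without line A2. The histone mRNA-binding gene Slbp had 76.6, 90.6 and 93.5 CPM in KO day-5 libraries, against 94.0, 117 and 129 CPM in KO day-3 libraries (log2 fold change -0.38 ± 0.07, adjusted p = 0.000762). Among 15 CDK inhibitors and D cyclins only Cdkn1a (p21), a p53 target that stops the cycle, was called (3 were higher and 1 lower without line B1, and 3 and 0 without line A2), with 95.2, 119 and 107 CPM at KO day 5, against 72.8, 90.0 and 79.7 CPM at KO day 3 (0.41 ± 0.08, adjusted p = 0.000575). Of 22 p53 targets 8 rose and 0 fell, and 3 and 0 with KO libraries alone. The counts were 6 and 1 without line A5, 4 and 1 without line B1 and 4 and 0 without line A2. The stress cytokine Gdf15 had 5.57, 8.39 and 8.63 CPM at KO day 5, against 2.19, 3.99 and 1.03 CPM at KO day 3 (1.68 ± 0.32, adjusted p = 0.000505), and the mTOR inhibitor Ddit4 had 467, 429 and 364 CPM at KO day 5, against 333, 323 and 223 CPM at KO day 3 (0.53 ± 0.08, adjusted p = 6.35e-05).

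Hypoxia-response genes, the targets of HIF factors that are induced when oxygen is short, rose in KO PGCLC. Of 21 tested, 12 were called higher and 1 lower at day 5 (57.1% and 4.76%), with a median log2 fold change of 0.40. The counts with KO libraries alone were 10 and 0, and 8 to 14 were higher with each line left out. In WT PGCLC 7 rose and 1 fell, with a median of 0.10. Adm, the vasodilator adrenomedullin, had 26.6, 19.6 and 4.72 CPM in KO day-5 libraries, against 9.86, 2.99 and 2.06 CPM in KO day-3 libraries (1.72 ± 0.23, adjusted p = 7.76e-06). Vegfa, the vascular growth factor, had 127, 178 and 69.4 CPM at KO day 5, against 74.7, 61.1 and 43.4 CPM at KO day 3 (1.01 ± 0.13, adjusted p = 0.000237). Line A2 was the lowest line for both at each day, and each line was higher at day 5. The prolyl hydroxylase Egln3, which feeds back on HIF, had 122, 148 and 119 CPM at KO day 5, against 91.0, 86.4 and 86.1 CPM at KO day 3 (0.55 ± 0.08, adjusted p = 2.29e-05). WT PGCLC had Egln3 at 83.8, 83.4 and 70.1 CPM at day 5, against 88.5, 88.2 and 86.1 CPM at day 3, and the difference between the steps was 0.70 ± 0.11 (adjusted p = 0.000523). The secreted glycoprotein gene Stc2 had 46.8, 83.9 and 41.7 CPM at KO day 5, against 26.5, 31.2 and 17.5 CPM at KO day 3 (1.16 ± 0.12, adjusted p = 1.36e-07).

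The collagen prolyl 4-hydroxylases P4ha1 and P4ha2, named after their values were seen, are shown with their promoters because both hold the HIF letters TACGTG. P4ha1 had 189, 161 and 93.1 CPM in KO day-5 libraries, against 149, 100.3 and 69.4 CPM in KO day-3 libraries (log2 fold change 0.47 ± 0.09, adjusted p = 0.00104), and P4ha2 had 91.8, 51.4 and 43.3 CPM at KO day 5, against 60.05, 37.2 and 32.6 CPM at KO day 3 (0.51 ± 0.10, adjusted p = 0.00106). TACGTG, searched on both strands and chosen after the data were seen, is in 5 of 19 hypoxia genes with a RefSeq promoter (26.3%), against 3.8% of tested genes and 3.12% of all. Both sequences are on the plus strand, which is the strand of the gene, and capitals mark the match, which reads CACGTA in P4ha1 because it lies on the minus strand.
P4ha1 (chr10:59323046-59323295): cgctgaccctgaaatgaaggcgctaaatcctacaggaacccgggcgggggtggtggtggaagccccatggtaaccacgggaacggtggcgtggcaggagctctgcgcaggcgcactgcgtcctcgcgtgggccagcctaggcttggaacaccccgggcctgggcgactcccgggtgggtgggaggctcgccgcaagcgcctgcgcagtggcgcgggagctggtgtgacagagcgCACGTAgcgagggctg
P4ha2 (chr11:54100674-54100923): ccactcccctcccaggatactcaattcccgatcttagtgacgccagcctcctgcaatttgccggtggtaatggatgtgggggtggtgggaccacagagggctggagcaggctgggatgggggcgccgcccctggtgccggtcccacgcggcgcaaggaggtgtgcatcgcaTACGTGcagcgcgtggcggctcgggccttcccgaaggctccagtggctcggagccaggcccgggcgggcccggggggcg

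Of 25 glycolysis genes 7 were called higher and 2 lower in KO PGCLC at day 5, and 5 and 0 with KO libraries alone. The shares in the main test were 28% and 8%, against 9.1% and 8.23% of all tested genes. With each line left out 5 to 10 were higher and 0 to 2 lower. The phosphofructokinase gene Pfkp had 408, 471 and 360.3 CPM in KO day-5 libraries, against 272, 289 and 165 CPM in KO day-3 libraries (log2 fold change 0.79 ± 0.08, adjusted p = 1.41e-06), and the enolase gene Eno2 had 55.5, 35.1 and 30.4 CPM at KO day 5, against 27.6, 27.6 and 17.5 CPM at KO day 3 (0.75 ± 0.13, adjusted p = 0.000295). Pfkp also rose in WT PGCLC (0.40). Of 12 genes of fatty acid synthesis and desaturation 6 rose and 0 fell, with the same counts with KO libraries alone, while in WT PGCLC 0 rose and 2 fell. Scd2, a stearoyl-CoA desaturase, had 746, 666 and 545 CPM at KO day 5, against 413, 419 and 422 CPM at KO day 3 (0.63 ± 0.07, adjusted p = 1.07e-06). WT PGCLC had Scd2 at 341, 339 and 313 CPM at day 5, against 349.6, 327 and 360.0 CPM at day 3, and the difference between the steps was 0.69 ± 0.10 (adjusted p = 0.000167). All 3 KO day-5 libraries lay above the 9 other PGCLC libraries.

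Of 23 cholesterol synthesis and uptake genes 7 rose and 0 fell, 4 and 0 with KO libraries alone, and 4 without line B1. Cyp51, the lanosterol demethylase, had 107, 114 and 113 CPM in KO day-5 libraries, against 81.1, 80.1 and 73.8 CPM in KO day-3 libraries (log2 fold change 0.51 ± 0.07, adjusted p = 1.96e-05). Of 20 genes of the ATF4 response to amino acid shortage 10 rose and 0 fell, 5 and 0 with KO libraries alone, and 4 and 3 without line A2, whose median ratio of the list was 0.67, against 0.17 in line A5 and 0.09 in line B1. Vldlr, a lipoprotein receptor, had 12.1, 8.82 and 9.45 CPM at KO day 5, against 3.94, 3.65 and 3.08 CPM at KO day 3 (1.52 ± 0.24, adjusted p = 6.92e-05). Chac1 and Trib3 lost the call without line A2 (adjusted p = 0.0634 and 0.17).

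Of 13 listed genes of the mitochondrial genome 7 were tested. The rest, mt-Nd3, mt-Nd4l, mt-Co2, mt-Co3, mt-Atp6 and mt-Atp8, had 0 counts in every PGCLC library, and the reason was not tested. The tested transcripts were lower in KO PGCLC at day 5, with 4 of 7 called (3 with KO libraries alone). Their median log2 fold change was -0.34, against 0 of 7 called and -0.06 in WT PGCLC. The complex I subunit gene mt-Nd2 had 1059, 875 and 1283 CPM in KO day-5 libraries, against 1316, 1136 and 1701 CPM in KO day-3 libraries (-0.37 ± 0.05, adjusted p = 8.57e-06). The neighbouring mt-Nd1 had 2209, 1981 and 2590.3 CPM at KO day 5, against 2602, 2498 and 3506 CPM at KO day 3 (-0.34 ± 0.05, adjusted p = 7.05e-05). Line A2 was the highest line at each day, and every line was lower at day 5. Nuclear genes of the respiratory chain moved little, with 3 of 36 higher and 1 lower and a median of 0.02. The shares were 8.33% and 2.78%, against 9.1% and 8.23% of all tested genes. With KO libraries alone 0 of 35 were higher and 1 lower, and 0 and 1 of 36 without line B1.

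**Figure D4:**
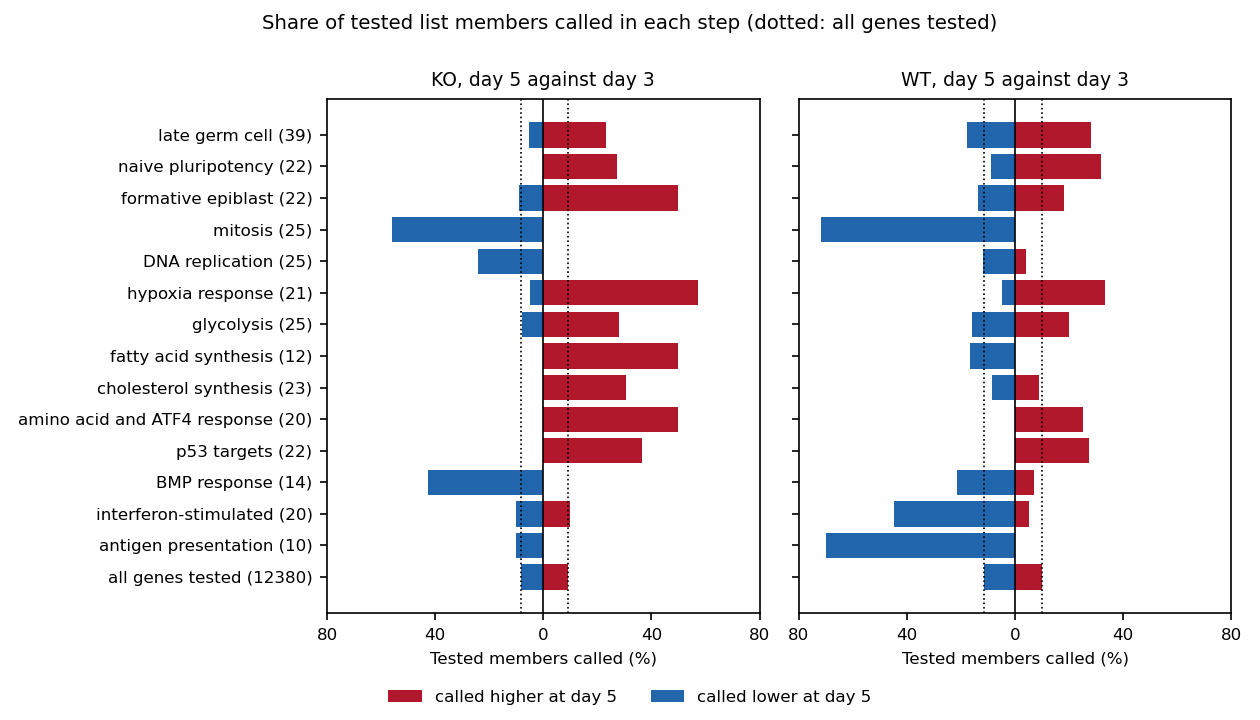
Percent of the tested members of 14 gene lists called higher (right of 0) or lower (left of 0) at day 5, in KO on the left and in WT on the right, with list sizes in brackets and dotted lines for all tested genes (9.1% higher and 8.23% lower in KO, 10.1% and 11.5% in WT). Hypoxia, fatty acid, ATF4 and formative genes reach 50% or more called higher in KO, mitosis genes are called lower in both genotypes, and the interferon and antigen lists are called lower mostly in WT.

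Of the 2145 genes called in KO PGCLC, 925 were also called in the same direction in WT PGCLC (43.1% of the KO calls and 34.6% of the 2674 WT calls) and 39 in the opposite direction. The steps share no library. The difference between the steps was called for 434 of 12380 genes (3.51%), 295 with a higher KO step (2.38%) and 139 with a lower KO step (1.12%). In 203 of these the WT step was called and the KO step was not, and in 159 the KO step was called and the WT step was not. The difference was not called for any gene when the KO line was not blocked and all 18 libraries were fitted (561 had an unadjusted p under 0.05), and for 5 genes when the 12 PGCLC libraries were fitted without the block, so these calls depend on the pairing of lines. They also depend on single WT libraries: 243, 226 and 235 genes were called without WT day-3 replicate 1, 2 or 3, and 232 and 208 without WT day-5 replicate 1 or 2.

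Many interferon-stimulated and antigen-presentation genes fell in WT PGCLC, and few were called in KO PGCLC. Of 20 interferon-stimulated genes 2 were called higher and 2 lower in KO (1 and 1 with KO libraries alone, 2 and 4 of 21 without line A2), against 1 higher and 9 lower in WT. All tested genes were at 9.1% and 8.23% in KO and at 10.1% and 11.5% in WT, so the KO counts of this list were near the background. The difference between the steps was called for 6 with a higher and 1 with a lower KO step. Of 10 antigen-presentation genes 0 were higher and 1 lower in KO (0 and 0 with KO libraries alone), a share also near the background, against 0 and 7 in WT. Gbp2, a guanylate-binding protein, had 44.3, 20.4 and 8.42 CPM in KO day-5 libraries, against 40.8, 22.9 and 5.91 CPM in KO day-3 libraries (0.09 ± 0.14, adjusted p = 0.719). WT PGCLC had Gbp2 at 1.21, 1.21 and 1.40 CPM at day 5, against 10.2, 11.8 and 9.67 CPM at day 3 (-3.04 ± 0.27, adjusted p = 1.34e-08). The KO lines held an order of A5, B1, A2 at both days, and every WT day-5 library was below every other library. The difference between the steps was 3.13 ± 0.31 (adjusted p = 3.82e-07). Psmb8, the immunoproteasome subunit, had 14.8, 18.9 and 4.11 CPM at KO day 5, against 17.1, 22.3 and 4.88 CPM at KO day 3, and 0.807, 1.21 and 0.467 CPM at WT day 5, against 6.34, 6.11 and 6.91 CPM at WT day 3 (difference between the steps 2.66 ± 0.38, adjusted p = 0.000102). Gbp2, Gbp3 and Psmb8 were named after their values were seen, and reads of Gbp genes may be shared among near-identical copies.

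Among the genes open to naming, the 6 largest differences in each direction included other genes of this kind. Gbp1 had 20.8, 10.3 and 2.67 CPM in KO day-5 libraries, against 22.8, 13.3 and 3.60 CPM in KO day-3 libraries, and 0.202, 0.405 and 0.701 CPM at WT day 5, against 5.12, 6.68 and 10.1 CPM at WT day 3 (difference between the steps 3.78 ± 0.49, adjusted p = 2.98e-05). Zbp1, a sensor of Z-form nucleic acid, rose in KO PGCLC with 25.9, 29.1 and 9.65 CPM at KO day 5, against 10.96, 10.3 and 5.14 CPM at KO day 3 (1.26 ± 0.18, adjusted p = 1.55e-05), and had 0.807, 0.405 and 0.234 CPM at WT day 5, against 0.975, 1.15 and 2.07 CPM at WT day 3. Its difference between the steps lost the call without WT day-3 replicate 3 (adjusted p = 0.0859). The E3 ligase Trim25 moved the other way, with 274, 273 and 181 CPM at KO day 5, against 344, 309 and 229 CPM at KO day 3 (-0.28 ± 0.06, adjusted p = 0.00109).

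RefSeq gives Gbp3 a pair of promoters, of which the upstream is shown because it holds the letters of an interferon-stimulated response element, GAAANNGAAA, which were chosen after the data were seen and searched on both strands. They are in 9 of 19 list members with a RefSeq promoter (47.4%), against 2.9% of tested genes and 3.46% of all RefSeq promoters. Gbp3 had 26.6, 17.2 and 5.34 CPM in KO day-5 libraries, against 34.0, 21.3 and 4.63 CPM in KO day-3 libraries, and 0.202, 0.809 and 1.17 CPM at WT day 5, against 8.78, 3.82 and 6.91 CPM at WT day 3 (difference between the steps 2.85 ± 0.48, adjusted p = 0.000899). The sequence is on the plus strand, which is the strand of the gene, and capitals mark a pair of overlapping matches on the minus strand. The other promoter, chr3:142560106-142560355, holds 0 matches.
Gbp3 (chr3:142559794-142560043): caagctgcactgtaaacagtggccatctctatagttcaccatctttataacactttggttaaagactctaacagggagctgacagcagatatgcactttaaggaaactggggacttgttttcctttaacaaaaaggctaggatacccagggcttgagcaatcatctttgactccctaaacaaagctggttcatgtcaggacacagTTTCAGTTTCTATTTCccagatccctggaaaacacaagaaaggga

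**Figure D5:**
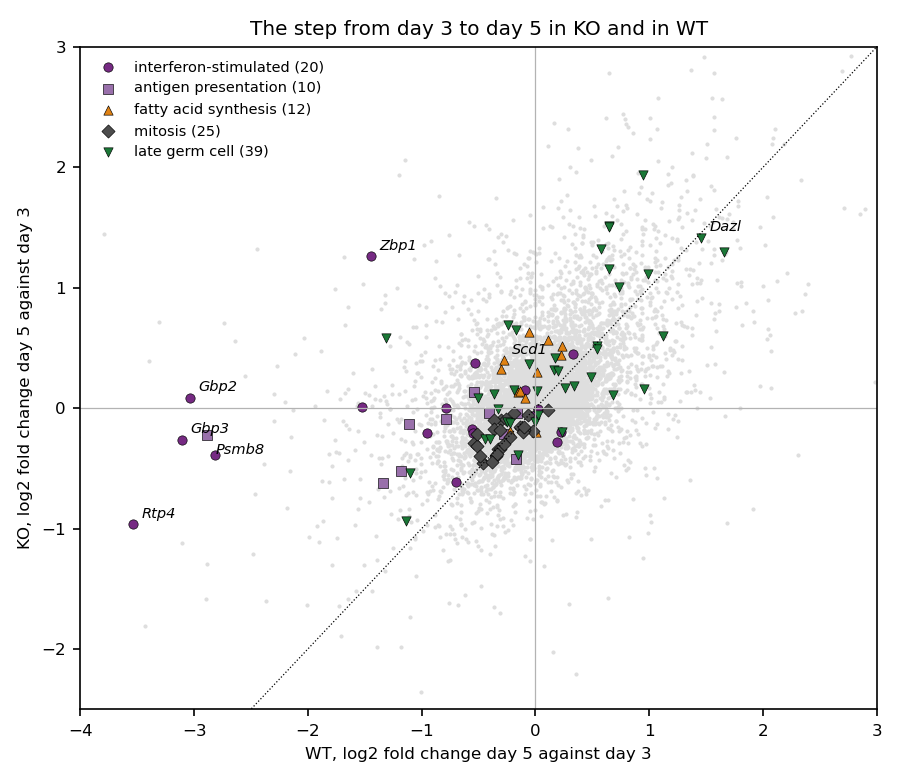
The log2 fold change from day 3 to day 5 in KO (vertical) against that in WT (horizontal) for all tested genes in grey and 5 lists in colour, with the number tested in brackets, a dotted line where both are equal, and 21 genes outside the axes. Gbp2, Gbp3 and Psmb8 lie near 0 in KO and near -3 in WT, nearly all mitosis genes are below 0 in both, and Dazl lies near the line.

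Foxn4, a forkhead factor of retina and spinal cord, and Msc, a bHLH repressor, also differed between the steps. Foxn4 had 5.09, 4.74 and 1.23 CPM in KO day-5 libraries, against 1.31, 2.99 and 0.514 CPM in KO day-3 libraries, and 1.21, 1.42 and 2.10 CPM at WT day 5, against 5.61, 4.20 and 5.53 CPM at WT day 3 (difference 2.94 ± 0.52, adjusted p = 0.00109). The KO step of Foxn4 was at 1.26 (adjusted p = 0.0264) and lost the call without line A5 (0.322) and with KO libraries alone (0.109). Msc had 9, 17 and 9 counts (2.18, 3.66 and 1.85 CPM) at KO day 5 and 0 counts in all 3 KO day-3 libraries. This is at least 10.03-fold higher against a floor of 3 counts over the KO day-3 group. WT PGCLC had Msc at 7.06, 7.69 and 6.54 CPM at day 5, against 5.61, 4.77 and 4.84 CPM at day 3. Every KO library of Msc at either day lay below every WT library. Hand1, a BMP-induced bHLH factor, had the largest negative difference among the genes open to naming (-2.03 ± 0.38, adjusted p = 0.00839), with 10.9, 10.3 and 13.6 CPM at KO day 5, against 11.6, 18.9 and 42.9 CPM at KO day 3, and 11.3, 14.8 and 15.2 CPM at WT day 5, against 4.39, 7.26 and 8.75 CPM at WT day 3. The KO decrease of Hand1 lay mostly in line A2, and without that line the KO step was -0.50 (adjusted p = 0.157).

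BMP-response genes fell in KO PGCLC, with 0 of 14 called higher and 6 lower and a median log2 fold change of -0.60, but with KO libraries alone 0 were higher and 1 lower, and without line A2 1 of 15 was higher and 2 lower. Besides Gata2 and Hand1, Msx2 was at -0.77 and at -0.10 without line A2 (adjusted p = 0.815). Of 10 WNT-response genes 1 was higher and 1 lower (0 and 1 of 9 with KO libraries alone), near the 9.1% and 8.23% of all tested genes. Axin2 lost the call without line A2 (adjusted p = 0.0569) and Lef1 without line B1 (0.304). The secreted WNT inhibitor Dkk1 was at -1.52 ± 0.30 (adjusted p = 0.000924, and 0.0196 with KO libraries alone). Dkk1 passed the filter on low counts in 8 of 9 fits that left out a KO line or a WT library. Without line A2, 0 of 7 tested WNT ligands and inhibitors were called lower, against 2 of 8 in the main test. Among 16 LIF and STAT3 response genes 1 was higher and 3 lower (0 and 2 of 14 with KO libraries alone, 1 and 5 without line A2), and the kinase gene Pim1 had 142, 182 and 142 CPM in KO day-5 libraries, against 214, 251 and 165 CPM in KO day-3 libraries (-0.43 ± 0.07, adjusted p = 0.000254). Of 16 genes of the KIT, FGF and ERK response 2 were higher and 3 lower (1 and 2 with KO libraries alone), and the feedback inhibitor Spry2 had 52.8, 59.4 and 88.1 CPM at KO day 5, against 73.0, 76.1 and 106 CPM at KO day 3 (-0.36 ± 0.08, adjusted p = 0.00374). WT PGCLC had Spry2 at 96.1, 90.6 and 80.6 CPM at day 5, against 81.4, 72.9 and 77.6 CPM at day 3 (difference between the steps -0.57 ± 0.11, adjusted p = 0.00424). The immediate-early gene Jun had 48.7, 36.2 and 24.4 CPM at KO day 5, against 73.4, 80.4 and 64.8 CPM at KO day 3 (-1.02 ± 0.11, adjusted p = 7.72e-07), and fell in WT PGCLC by 0.99 as well.

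Matrix and migration genes moved in both directions. Of 17 basement membrane and matrix genes 6 rose and 2 fell, and of 22 migration and adhesion genes 7 rose and 5 fell (5 and 2, and 4 and 4, with KO libraries alone; with each line left out 4 to 7 and 3, and 5 and 4 to 7). The proteoglycan Vcan had 17.7, 22.8 and 36.8 CPM in KO day-5 libraries, against 8.77, 7.97 and 11.3 CPM in KO day-3 libraries (log2 fold change 1.44 ± 0.16, adjusted p = 7.2e-07). WT PGCLC had Vcan at 19.4, 20.6 and 16.1 CPM at day 5, against 33.6, 33.4 and 28.6 CPM at day 3 (-0.76 ± 0.13, adjusted p = 0.000105), and the difference between the steps was 2.20 ± 0.21 (adjusted p = 2.06e-07). No library of one day reached the other in either genotype, and the directions were opposite. The nidogen gene Nid1 had 176, 158 and 127 CPM at KO day 5, against 111, 80.7 and 77.9 CPM at KO day 3 (0.77 ± 0.07, adjusted p = 6.39e-08), and the perlecan gene Hspg2 had 242, 159.7 and 269 CPM at KO day 5, against 341, 259.8 and 399 CPM at KO day 3 (-0.58 ± 0.07, adjusted p = 6.92e-06). The mesenchymal filament gene Vim had 101, 118 and 167 CPM at KO day 5, against 57.6, 65.8 and 80.2 CPM at KO day 3 (0.91 ± 0.08, adjusted p = 1.85e-08), and Zeb1, a repressor of epithelial genes, had 11.4, 20.4 and 25.3 CPM at KO day 5, against 6.36, 6.64 and 12.1 CPM at KO day 3 (1.16 ± 0.18, adjusted p = 4.62e-05). The epithelial splicing factor Esrp1 fell, with 175, 158 and 106 CPM at KO day 5, against 259.9, 265 and 162 CPM at KO day 3 (-0.64 ± 0.06, adjusted p = 1.39e-07), and was named after its values were seen.

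In KO libraries the marker sums of other cell types reached at most 79.7 CPM, against 399 to 664 CPM for the germ cell markers without Dppa3. The part of other cells in the results above was not tested. Fibroblast markers (Col1a1, Col1a2, Col3a1 and Postn) summed to 7.51 to 79.7 CPM at KO day 5, against 5.04 to 18.3 CPM at KO day 3. The top value was line A2 at day 5, where Col1a1 was at 52.0 CPM, against 13.1 CPM in line A2 at day 3. Col1a2 and Col3a1 were at 13.6 and 14.2 CPM in line A2 at day 5, against 0.257 CPM each at day 3. In lines A5 and B1 they were at 0 to 1.45 CPM at day 5. In the day-5 library of line A2, Col1a1 was above Nanos3 (11.3 CPM) and Dnd1 (18.1 CPM) and below Prdm1, Prdm14, Tfap2c and Kit. Vim, Nid1 and Vcan rose in lines A5, B1 and A2, and the part of fibroblasts in this rise was not tested. Endoderm markers (Sox17, Foxa2, Gata4 and Gata6) summed to 6.30 to 9.24 CPM at KO day 5, against 0.664 to 5.40 CPM at KO day 3, and to 6.86 to 8.29 CPM at WT day 5, against 1.91 to 3.17 CPM at WT day 3. Neural markers (Sox1, Pax6 and Neurog2) summed to 2.58 to 5.96 CPM at KO day 5, against 0 to 1.54 CPM at KO day 3, with Neurog2, and the leukocyte marker Ptprc, at 0 in all 12 PGCLC libraries. Of 8 tested neural genes 5 rose and 0 fell (62.5%, against 9.1% of all tested genes higher), but 1 of 6 rose with KO libraries alone, and 2 of 8 without line A5 or line A2. The eye and forebrain factor Pax6 had 4.85, 2.58 and 3.70 CPM at KO day 5, against 0.219, 0 and 0.514 CPM at KO day 3 (3.74 ± 0.60, adjusted p = 8.62e-05). Trophoblast markers (Cdx2, Elf5, Gata3 and Krt7) summed to 11.2 to 15.5 CPM at KO day 5, against 14.9 to 26.2 CPM at KO day 3, mesoderm markers (T, Mixl1, Mesp1 and Hand1) to 11.4 to 13.8 CPM, against 13.8 to 46.0 CPM, and blood and endothelial markers (Kdr, Cdh5, Tal1 and Ptprc) to 2.26 to 4.09 CPM, against 0 to 3.29 CPM. Line A2 at day 3 held the highest mesoderm value. Of 25 imprinted genes 3 rose and 3 fell in KO, 1 and 0 with KO libraries alone, and 2 and 1 without line B1, against 1 and 9 in WT. The KO shares of 12% each were near the 9.1% and 8.23% of all tested genes.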

How the data were processed

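PolyA RNA of sorted PGCLC was extracted with PicoPure and made into directional NEBNext Ultra II libraries, per the labels' protocols. The authors deposited raw read counts per gene for each library and deposited CPM for all 18, which equal the counts over the library total to within 1e-06. Per the submitters' processing notes, Trim Galore 0.4.3.1 served for trimming, and mm10 and GRCm38.p4 are named as builds. No aligner, counter, annotation or strand setting is given in the sources used here. Genes that overlap on opposite strands or have near-identical copies are therefore uncertain. Of 25965 rows, 56 without a gene ID (0.0559% to 0.0828% of counts) were left out, and 25909 genes remained. Totals lay between 3032965 and 5286330 counts per library. Gene positions are from GENCODE M21 (GRCm38), which has no position for Gbp1, and promoters from RefSeq GRCm38.p6.

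The 12 PGCLC libraries were fitted with edgeR 4.0.16 in R 4.3.3 (filterByExpr, TMM factors of 0.982 to 1.02, robust quasi-likelihood, common dispersion 0.00277, 6 residual degrees of freedom) with a mean per group and the KO line as a block. Calls were made at a Benjamini-Hochberg adjusted p under 0.05 over all 12380 tested genes of a comparison. Line names pair the KO libraries: deviations from the group means correlated at 0.575 (A5), 0.352 (B1) and 0.61 (A2) between the days. WT numbers do not (0.0633, 0.00296 and 0.0497) and were not blocked. On simulated data with 200 changed genes among 12264 the KO comparison found 82% of genes changed 1.5-fold, 96% of those changed 2-fold and 100% of those changed 4-fold, with calls for 0.0746% of unchanged genes. The simulated line effects were the same at both days, the spread was that of the 12-library fit, and changed genes had at least 5 CPM. These shares therefore do not cover steps that differ between KO lines, and the shares found do not cover genes near 0. For Msc, at 0 in KO day-3 libraries, a floor of 3 counts in the group was taken, which covers counting error only. A prior count of 2 entered the log2 CPM of the principal components.

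Named genes are Esrrb, the 12 highest and 12 lowest KO changes and the 6 and 6 largest differences between the steps (called, at least 5 CPM in the higher group, the same sign in 3 lines, no overlap for the KO step, predicted models passed over), up to 4 called members of a list with the largest changes, and any member of the germ cell, pluripotency and DNA methylation lists. Lists, markers and comparisons were chosen with earlier results of these data known, and not every gene open to naming is named; some are not reported here. Alternatives were RLE scaling, no filter, DESeq2 1.42.0, limma-trend (limma 3.58.1) on log2 of the deposited CPM plus 1, other blocks and samples, leaving out each line or library, genes of chromosomes 1, 8, 11, 16 and Y left out (levels of whole chromosomes had differed between libraries in earlier results of these data) and a fold threshold. Values of each list with KO libraries alone or without a line were added after seeing the data.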

Additional observations from a re-analysis of the deposited data

Results flagged for a closer look

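The difference between the KO step and the WT step, each day 5 against day 3, was tested gene by gene with edgeR and called for 434 genes. Among the genes named here it was 5.96 for Msc, 3.78 for Gbp1, 3.13 for Gbp2, 2.85 for Gbp3, 2.66 for Psmb8, 2.94 for Foxn4, 2.20 for Vcan, 1.33 for Otx2, 1.02 for Ifitm1, 0.71 for Fgf4, 0.70 for Egln3, 0.69 for Scd2, -0.57 for Spry2 and -2.03 for Hand1, on the log2 scale. These 14 genes kept the call with each KO line and each WT library left out in turn. The value for Msc depends on the prior count, since its KO day-3 libraries are at 0.

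The remaining 8 lost the call in at least 1 such fit. Bcl11a, at 3.21, reached an adjusted p of 0.362, and Ripply1, at 3.14, reached 0.13. Zbp1, at 2.70, lost it without WT day-3 replicate 3. For negative differences, Mapk4 was at -1.96, Plcl2 at -1.53, Gata2 at -1.39, Extl1 at -1.21 and Igdcc3 at -1.38, with highest adjusted p of 0.111, 0.0859, 0.0883, 0.11 and 0.211. Igdcc3 had 4.12, 5.60 and 6.98 CPM at KO day 5, against 6.14, 9.64 and 26.2 CPM at KO day 3, and 12.5, 15.2 and 13.8 CPM at WT day 5, against 12.2, 13.9 and 13.1 CPM at WT day 3. Without line A2 its difference between the steps was -0.76 (adjusted p = 0.211). Groups hold 3 libraries each, so single libraries were not screened as outliers.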

How the results depend on the processing

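The KO step (2145 calls) and the WT step (2674) kept to within 1.5 times of their counts with RLE scaling, without a filter, with limma-trend, the block extended to WT numbers and chromosomes 1, 8, 11, 16 and Y left out. With DESeq2 the KO step had 1077 calls, the WT step 1384 and their difference 176 (434 in the main test). The pairing of KO libraries by line mattered most: with no replicate block the counts were 176, 340 and 5, and with all 18 libraries and no replicate block they were 71, 99 and 0. The KO libraries alone gave 777 calls with the block and 0 without it (913 at an unadjusted p under 0.05). A change of at least 2-fold was met by 358. With limma-trend 2227 genes were called in the KO step, 1423 higher and 804 lower (63.9% higher). The difference had 759 calls without a filter and 231 with the block also on WT numbers, which did not pair the WT libraries.

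Leaving out a KO line or a WT library in turn gave 1536 to 2134 calls in the KO step. The WT step had 1736 to 2203 calls without a WT library and up to 3278 without a KO line, and the difference 208 to 326 without a WT library and up to 637 without a KO line. The WT step had 1770 and 1736 calls without WT day-3 replicates 2 and 3. Of 110 named genes called in the KO step, 88 kept the call in each of these fits in which they passed the filter. The call was kept by 98 with DESeq2, 107 with limma-trend, 84 with KO libraries alone and 35 with no replicate block, and none reversed. The causes of these changes were not tested. Line B1 at day 3 had the fewest counts, 3032965, which limits genes near 0.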
